A study of Mus musculus with 6 samples.

Results

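The 10 genes described here encode transcription factors that T cell receptor signaling is known to induce or activate. They are the orphan nuclear receptor genes *Nr4a1*, *Nr4a2* and *Nr4a3*, the zinc finger factor genes *Egr1*, *Egr2* and *Egr3*, the calcium-regulated factor genes *Nfatc1*, *Nfatc2* and *Nfatc3*, and *Tox*, which encodes a high mobility group box factor. They were chosen by name for membership in these families, from 56748 genes in the table of counts. Earlier results of these data were known when they were chosen. The study asked how antisense oligonucleotides (ASOs) directed at *Pgam* isoforms, which encode the glycolytic enzyme phosphoglycerate mutase, alter gene expression during the polarization of regulatory T cells (Tregs). Naïve CD4 T cells were taken from the spleen and lymph nodes of young adult wild-type C57BL/6 mice and kept unsorted for 3 days in Treg polarizing culture, with plate-bound anti-CD3, soluble anti-CD28, IL-2, TGF-β and blocking antibodies to IFNγ and IL-4. Of 6 RNA-seq libraries, 3 came from cells given a scrambled ASO and 3 from cells given *Pgam* ASOs, and the ASO sequences are not given in the sources used here. The libraries labelled scrambled ASO held 17588755, 18032805 and 16231127 counts, and those labelled *Pgam* ASO held 16589933, 15860476 and 16803881. The study calls its replicates biological, but whether they came from separate animals or cultures of the same animals is not stated in the sources used here, so p-values measure the spread between these samples.

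T cell receptor engagement raises intracellular calcium, which activates the phosphatase calcineurin, and calcineurin sends NFAT proteins into the nucleus. The same signal, together with the MAP kinase pathway, induces EGR and NR4A genes within a short time of stimulation. EGR2 and EGR3 are known for restraining T cell activation, NR4A factors for inducing *Foxp3* in developing Tregs, and TOX for its part in T cell exhaustion and CD4 lineage development.

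The targeted genes were examined first as a check of the labels. *Pgam1* had 10655, 8847 and 11414 counts in the libraries labelled scrambled ASO, against 10601, 10299 and 11949 under the *Pgam* ASO label, with a log2 fold change of 0.18 (SE 0.126, adjusted p = 0.331 by the edgeR quasi-likelihood test). *Pgam2*, the muscle isoform, had 93, 125 and 46 counts against 48, 42 and 44, a log2 fold change of -0.84 (SE 0.313, adjusted p = 0.0854). Neither gene passed the threshold of 0.05 with all 6 libraries. Without scrambled ASO replicate 3, *Pgam2* did pass (log2 fold change -1.11, adjusted p = 0.0145), and over 6 other fits to all libraries its adjusted p ran from 0.0292 to 0.129. Of the 31-base stretches in *Pgam1* transcripts, 37.1% also occur in the pseudogene *Pgam1-ps2*, so reads of this pair may have been split. The groups are therefore called by their labels throughout. Levels are given in CPM, for which the counts of each library are brought to a common total after scaling by the trimmed mean of M-values (TMM). *Foxp3*, the lineage factor of Tregs, stood at 282, 371 and 222 CPM in the libraries labelled scrambled ASO, against 89.7, 109 and 131 under the *Pgam* ASO label. It fell by 1.41 on the log2 scale (SE 0.202, adjusted p = 0.00567), although other genes hold 26.4% of its 31-base stretches too, mainly the overlapping transcript *Flicr*. *Flicr* was assigned 214, 255 and 120 counts against 33, 38 and 60, beside 5005, 6862 and 3587 against 1444, 1695 and 2212 for *Foxp3*.

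All 10 members were expressed above the low-count filter, and 5 of them passed the test between labels, an adjusted p under 0.05 by the edgeR quasi-likelihood test with Benjamini-Hochberg adjustment. *Egr2*, *Egr3* and *Nfatc2* rose in the libraries labelled *Pgam* ASO, and *Nfatc3* and *Tox* fell. The background was 17.2% of 14936 tested genes called in either direction, 8.03% that rose and 9.15% that fell. Of the 10 members 50% were called, 3 that rose and 2 that fell, and no test of the difference from the background was made. The members and the pathway lists below were chosen with earlier results of these data known. Their shares beside the background are therefore descriptions only. The same 5 members had no overlap between the libraries of the groups, as did 39.5% of all tested genes. With each library left out in turn, the fall of *Tox* was the only call that held in all 6 fits. It was the only member called without scrambled ASO replicate 1 or 2 or *Pgam* ASO replicate 1 or 2, while 2 members were called without scrambled ASO replicate 3 and 4 without *Pgam* ASO replicate 3. The background moved as well, to 4.02%, 8.22% and 22.5% of tested genes without scrambled ASO replicates 1, 2 and 3, and to 5.60%, 2.51% and 21.5% without *Pgam* ASO replicates 1, 2 and 3. Without scrambled ASO replicate 3 the members' share of 20% was thus below it. The members' median log2 fold change was -0.014, beside -0.0061 over all tested genes, and the called members moved in both directions. In bulk samples, fewer cells of a type and less RNA per cell cannot be told apart.

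**Figure D1:**
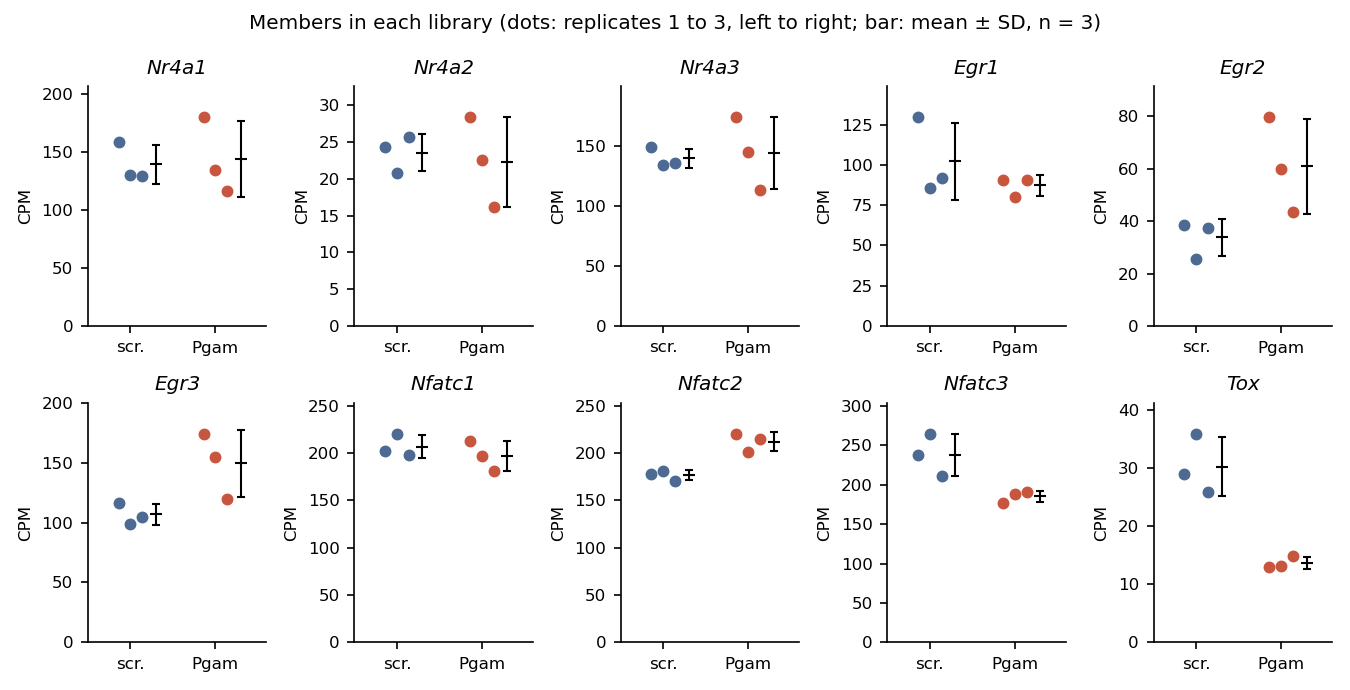
CPM of each member in each library, with dots for replicates 1 to 3 of each label and bars for the mean ± SD (n = 3). The dots of *Egr2*, *Egr3*, *Nfatc2*, *Nfatc3* and *Tox* fall in separate ranges under the labels, while those of the other 5 members overlap.

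**Figure D2:**
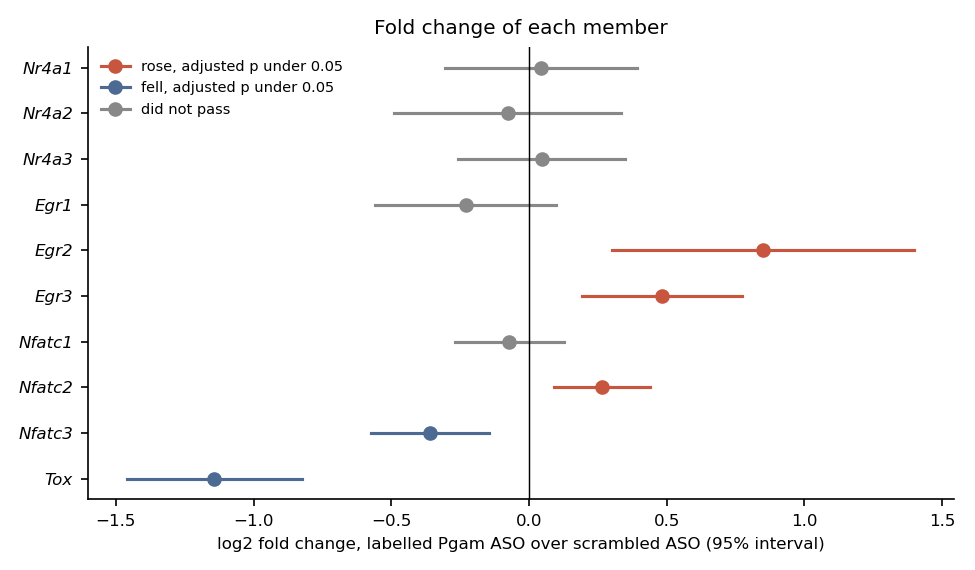
Log2 fold change of each member, labelled *Pgam* ASO over labelled scrambled ASO, with its 95% interval from the edgeR fit over 6 libraries. *Tox* lies lowest at -1.14 and *Egr2* highest at 0.85, and the intervals of all 3 NR4A genes cross 0.

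The regions before the start sites of members from both sides of the comparison are printed to show which response elements these genes carry. The table of RefSeq windows used here holds 6 of the 10 members, without *Egr1*, *Egr3*, *Nfatc1* and *Tox*. It has 5 windows for *Egr2* and 2 each for *Nfatc2* and *Nfatc3*, of which only the one nearest the start of a principal transcript was searched. *Nr4a1* is shown as an NR4A gene that did not pass the test, *Egr2* and *Nfatc2* as members that rose, and *Nfatc3* as a member that fell. Each sequence is the 250 bases before a transcription start in the RefSeq GRCm38.p6 build, written 5′ to 3′ on the gene's own strand, with motif matches in capitals. The windows are chr15:101266596-101266845 on the plus strand for *Nr4a1*, chr10:67537619-67537868 on the plus strand for *Egr2*, chr2:168590366-168590615 on the minus strand for *Nfatc2* and chr8:106059340-106059589 on the plus strand for *Nfatc3*. Each lies inside a longer annotated transcript of its own gene, and 0 bases of each window are exonic in GENCODE M21, which places them in introns of those longer transcripts.
Nr4a1: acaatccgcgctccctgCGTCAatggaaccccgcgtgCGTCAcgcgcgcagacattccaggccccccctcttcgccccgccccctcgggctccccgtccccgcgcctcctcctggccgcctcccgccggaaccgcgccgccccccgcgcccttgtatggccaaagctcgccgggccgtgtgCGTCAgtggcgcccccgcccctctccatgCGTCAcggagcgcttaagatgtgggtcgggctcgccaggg
Egr2: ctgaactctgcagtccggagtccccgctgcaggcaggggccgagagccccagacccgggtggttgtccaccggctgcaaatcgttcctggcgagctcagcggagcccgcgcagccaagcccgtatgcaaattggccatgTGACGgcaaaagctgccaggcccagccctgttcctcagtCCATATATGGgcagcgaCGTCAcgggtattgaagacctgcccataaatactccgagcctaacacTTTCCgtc
Nfatc2: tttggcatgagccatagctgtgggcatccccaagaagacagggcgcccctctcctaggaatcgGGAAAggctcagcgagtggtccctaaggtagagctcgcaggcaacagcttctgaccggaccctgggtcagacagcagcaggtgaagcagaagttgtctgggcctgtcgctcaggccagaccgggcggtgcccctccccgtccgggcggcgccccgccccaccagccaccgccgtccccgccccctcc
Nfatc3: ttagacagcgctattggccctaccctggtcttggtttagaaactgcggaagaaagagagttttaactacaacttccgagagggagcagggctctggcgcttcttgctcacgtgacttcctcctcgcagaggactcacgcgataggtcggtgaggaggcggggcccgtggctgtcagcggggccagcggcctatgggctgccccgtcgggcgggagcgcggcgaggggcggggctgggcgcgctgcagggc

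Both strands of the windows were searched for the cAMP response element half-site TGACG, its full form TGACGTCA (which holds the half-site), the NFAT core GGAAA, the EGR element GCGTGGGCG, the NR4A monomer element AAAGGTCA and the CArG box bound by serum response factor. The *Nr4a1* window holds 4 half-sites, whose first bases lie 233, 213, 69 and 40 bases before the start, and the windows of *Nr4a2* and *Nr4a3* hold 4 each as well, although 152 bases of the *Nr4a3* window are exonic. The *Egr2* window holds 2 half-sites at 111 and 55 bases, 1 CArG box at 72 bases and 1 NFAT core at 8 bases before the start. The *Nfatc2* window holds 1 NFAT core at 187 bases and no half-site, and the *Nfatc3* window holds none of the 6 motifs. The *Nr4a2* window has 1 NFAT core as well. Of 32817 windows of the same length, 17.7% hold the half-site, 55.6% the NFAT core, 1.47% the CArG box, 1.55% the full element, 0.536% the EGR element and 1.34% the NR4A element. The last 3 were found in none of the 6 windows searched. A match is a description of letters, not a binding site or a cause.

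The NR4A genes encode nuclear receptors that act without a known ligand and are widely used as markers of recent T cell receptor signaling. *Nr4a1*, whose protein is also called NUR77, stood at 159, 129.9 and 129 CPM in the libraries labelled scrambled ASO, against 180.1, 134 and 116 under the *Pgam* ASO label. *Pgam* ASO replicate 1 was the highest of the 6 libraries and replicate 3 the lowest, so the labelled groups overlapped fully. The log2 fold change was 0.04 (95% interval -0.30 to 0.39, adjusted p = 0.867 by edgeR). *Nr4a3* had 149, 134 and 136 CPM against 174, 145 and 113, with the same 2 libraries of the *Pgam* ASO label at the ends. Its log2 fold change was 0.05 (95% interval -0.26 to 0.35, adjusted p = 0.839). *Nr4a2* was measured at 24.3, 20.8 and 25.7 CPM against 28.4, 22.5 and 16.1, again with overlap, and its log2 fold change was -0.08 (95% interval -0.49 to 0.34, adjusted p = 0.797). The sign of all 3 estimates depended on single libraries, so no direction is given for these genes. Without *Pgam* ASO replicate 1, the estimates were -0.15 for *Nr4a1* and -0.11 for *Nr4a3*, and without *Pgam* ASO replicate 3 the estimate for *Nr4a2* was 0.12.

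The makeup of the NR4A family was similar in all libraries. On the scale of CPM per kilobase of exon, *Nr4a1* made 59.5%, 57.4% and 55.9% of the family's sum in the libraries labelled scrambled ASO, against 58.8%, 56.3% and 59.2% under the *Pgam* ASO label. *Nr4a3* made 32.6%, 34.6% and 34.5% against 33.2%, 35.5% and 33.7%, and *Nr4a2* the remaining 7.09% to 9.61%. The sum itself was 76.2, 64.5 and 65.7 CPM per kilobase against 87.3, 68.1 and 56.1, a wider spread under the *Pgam* ASO label. Thus the shares of *Nr4a1* and *Nr4a3* differed less between libraries than the family's total did.

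The EGR genes encode zinc finger factors of the immediate early response. *Egr2*, on chromosome 10 from 67535475 to 67542188 (GENCODE M21 on GRCm38, as for the other members), had 684, 475 and 604 counts in the libraries labelled scrambled ASO, against 1283, 935 and 733 under the *Pgam* ASO label. These counts correspond to 38.5, 25.6 and 37.4 CPM against 79.7, 59.99 and 43.4. Every library labelled *Pgam* ASO was above every library labelled scrambled ASO, with *Pgam* ASO replicate 1 highest and replicate 3 closest to the other group. The rise was 0.85 on the log2 scale (SE 0.237, 95% interval 0.30 to 1.40, adjusted p = 0.0457 by edgeR), or 1.80-fold. It passed in 1 of 6 fits with a library left out, without *Pgam* ASO replicate 3 (log2 fold change 1.05, adjusted p = 0.00761), and the log2 fold change was 0.61 to 0.95 in the others. The adjusted p was 0.0880, 0.149 and 0.0751 without scrambled ASO replicates 1, 2 and 3, and 0.0922 and 0.124 without *Pgam* ASO replicates 1 and 2.

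*Egr3*, on chromosome 14 from 70077203 to 70082614, encodes a factor that acts alongside EGR2 in T cells. It had 116, 99.0 and 105 CPM in the libraries labelled scrambled ASO, against 174, 154 and 119 under the *Pgam* ASO label. As with *Egr2*, the groups did not overlap, *Pgam* ASO replicate 1 was highest, and replicate 3 lay just above the scrambled ASO libraries. *Egr3* rose by 0.48 log2 units (SE 0.131, 95% interval 0.19 to 0.77, adjusted p = 0.0334 by edgeR). It too passed in 1 of 6 fits with a library left out, without *Pgam* ASO replicate 3 (log2 fold change 0.63, adjusted p = 0.00564), and the log2 fold change was 0.36 to 0.55 in the others. The adjusted p was 0.0758, 0.101 and 0.0560 without scrambled ASO replicates 1, 2 and 3, and 0.114 and 0.133 without *Pgam* ASO replicates 1 and 2. *Egr2* and *Egr3* share 0.406% of the 31-base stretches of *Egr2*.

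*Egr1*, a classical immediate early gene, did not pass. It had 130, 85.4 and 92.2 CPM in the libraries labelled scrambled ASO, against 90.9, 80.0 and 91.0 under the *Pgam* ASO label. Scrambled ASO replicate 1 was the only library set apart, and the others overlapped. The log2 fold change was -0.23 (SE 0.146, 95% interval -0.56 to 0.10, adjusted p = 0.292 by edgeR), and it was -0.03 without scrambled ASO replicate 1. As a share of the family's CPM per kilobase, *Egr1* made 43.4%, 38.8% and 37.2% in the libraries labelled scrambled ASO, against 24.4%, 25.3% and 33.7% under the *Pgam* ASO label. *Egr2* made 17.0%, 15.4% and 19.9% against 28.2%, 25.0% and 21.2%, and *Egr3* made 39.6%, 45.8% and 43.0% against 47.5%, 49.7% and 45.0%. The shares of *Egr1* and *Egr2* did not overlap between labels, while those of *Egr3* did.

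**Figure D3:**
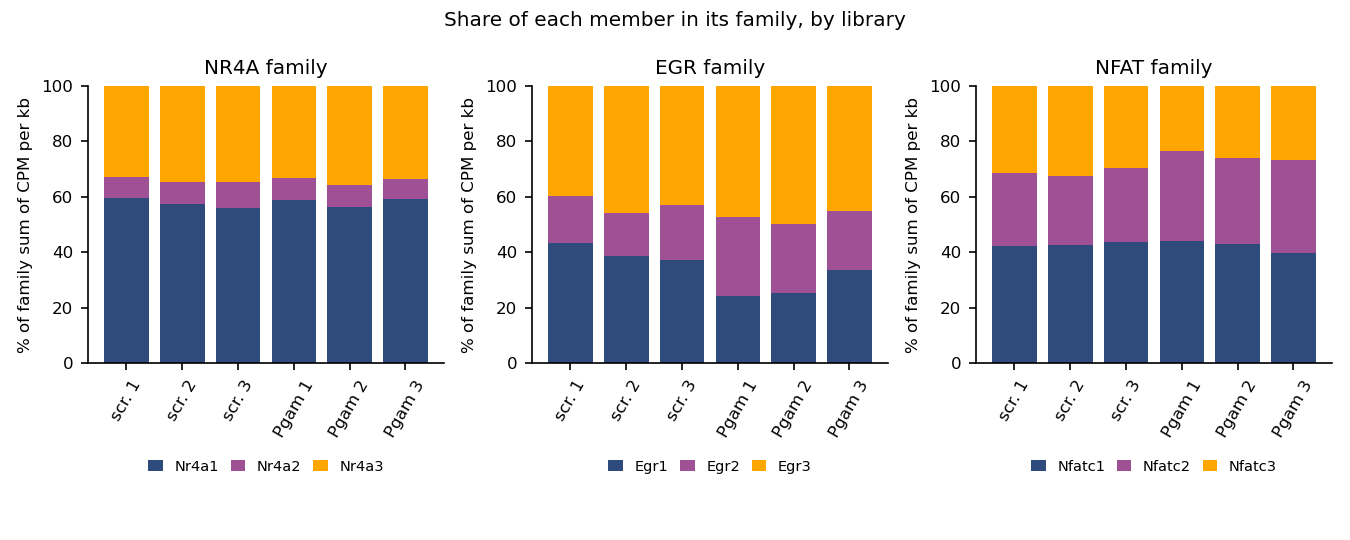
Share of each member in the summed CPM per kilobase of its family, as stacked bars for the 6 libraries. The NR4A bars are alike, the *Egr1* segment is at most 33.7% in the libraries labelled *Pgam* ASO and at least 37.2% in the others, and the *Nfatc3* segment is shorter in the libraries labelled *Pgam* ASO.

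A ratio of counts within a library does not depend on how libraries are scaled, and 6 ratios between members were computed after the data had been seen. *Egr2* counts per *Egr1* count were 0.297, 0.300 and 0.406 in the libraries labelled scrambled ASO, against 0.876, 0.750 and 0.477 under the *Pgam* ASO label. The geometric mean went from 0.331 to 0.679, a log2 difference of 1.04. The ratio of *Egr3* to *Egr1* was 0.898, 1.16 and 1.14 against 1.91, 1.93 and 1.31, and the ratio of *Nr4a1* to *Egr2* was 4.14, 5.06 and 3.45 against 2.26, 2.24 and 2.69. None of these 3 ratios overlapped between labels. As the ratios were picked after the data had been seen, no test of them is given, and they do not show which gene of a pair changed.

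The NFAT genes encode the factors that calcineurin releases, and 2 of the 3 were called, in opposite directions. *Nfatc2*, on the minus strand of chromosome 2 from 168476410 to 168601657, encodes the NFAT protein already present in resting T cells. It had 178, 181 and 171 CPM in the libraries labelled scrambled ASO, against 221, 201 and 215 under the *Pgam* ASO label. The libraries within each label were close together, and the groups did not overlap. *Nfatc2* rose by 0.26 log2 units (SE 0.0786, 95% interval 0.09 to 0.44, adjusted p = 0.0443 by edgeR), the smallest change among the 5 called members. The call was lost whichever library was left out, with an adjusted p of 0.149, 0.0602 and 0.0755 without scrambled ASO replicates 1, 2 and 3, and 0.139, 0.115 and 0.0679 without *Pgam* ASO replicates 1, 2 and 3. The log2 fold change stayed between 0.24 and 0.30 in these fits. It was also lost when libraries were scaled by their totals alone (0.23, adjusted p = 0.0680) and with a replicate block (adjusted p = 0.120), and over 6 other fits to all libraries the adjusted p ran from 0.021 to 0.120.

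*Nfatc3*, on chromosome 8 from 106058840 to 106130537, encodes a family member that is likewise constitutively expressed. It had 237, 264 and 211 CPM in the libraries labelled scrambled ASO, against 177, 188 and 190.3 under the *Pgam* ASO label. All libraries labelled *Pgam* ASO lay below the others, the lowest of which was scrambled ASO replicate 3. *Nfatc3* fell by 0.36 log2 units (SE 0.0963, 95% interval -0.57 to -0.14, adjusted p = 0.0328 by edgeR). The call held without scrambled ASO replicate 3 and without *Pgam* ASO replicate 3. It was lost without scrambled ASO replicates 1 and 2 (adjusted p = 0.105 and 0.0737) and without *Pgam* ASO replicates 1 and 2 (adjusted p = 0.111 and 0.124), with log2 fold changes from -0.37 to -0.27, and with a replicate block (0.0765). Its exons overlap 219 bases of *Esrp2* on the opposite strand, which had 18 to 42 counts per library beside 2850 to 4896 for *Nfatc3*. Whether counting used strand is not stated in the sources used here.

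*Nfatc1*, whose short isoform is known to be induced through NFAT itself, had 203, 220.4 and 198 CPM in the libraries labelled scrambled ASO, against 213, 197 and 181 under the *Pgam* ASO label. The groups overlapped, and the log2 fold change was -0.07 (SE 0.0892, 95% interval -0.27 to 0.13, adjusted p = 0.600 by edgeR). Isoforms cannot be separated in counts per gene. The ratio of *Nfatc3* to *Nfatc2* counts was 1.33, 1.46 and 1.23 in the libraries labelled scrambled ASO, against 0.803, 0.934 and 0.885 under the *Pgam* ASO label, so the ratio was above 1 under the first label and below 1 under the second. The ratio of *Nfatc1* to *Nfatc2* was 1.14, 1.22 and 1.16 against 0.964, 0.977 and 0.844. As shares of the family's CPM per kilobase, *Nfatc2* made 26.2%, 24.8% and 26.7% against 32.4%, 31% and 33.4%, and *Nfatc3* made 31.5%, 32.6% and 29.7% against 23.4%, 26.1% and 26.7%. The family's sum was 64.1, 69.2 and 60.5 CPM per kilobase against 64.4, 61.4 and 60.8, with overlap between labels.

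*Tox*, on the minus strand of chromosome 4 from 6686353 to 6991557, showed the largest change of the 10 members. It had 513, 664 and 418 counts in the libraries labelled scrambled ASO, against 210, 204 and 252 under the *Pgam* ASO label, or 28.9, 35.9 and 25.9 CPM against 13.0, 13.1 and 14.9. The libraries labelled *Pgam* ASO lay close together and far below the lowest of the others. *Tox* fell by 1.14 log2 units (SE 0.143, 95% interval -1.46 to -0.83, adjusted p = 0.00155 by edgeR), a change of -54.7%. It kept its call in all 6 fits with a library left out, with log2 fold changes from -1.239 to -1.002 and adjusted p from 0.000857 to 0.0201. The antisense transcript *Gm11802* overlaps 260 exon bases of *Tox* and had between 0 and 3 counts per library. Relative to *Nfatc2*, *Tox* counts went from 0.162, 0.198 and 0.152 to 0.0591, 0.0650 and 0.0694.

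**Figure D4:**
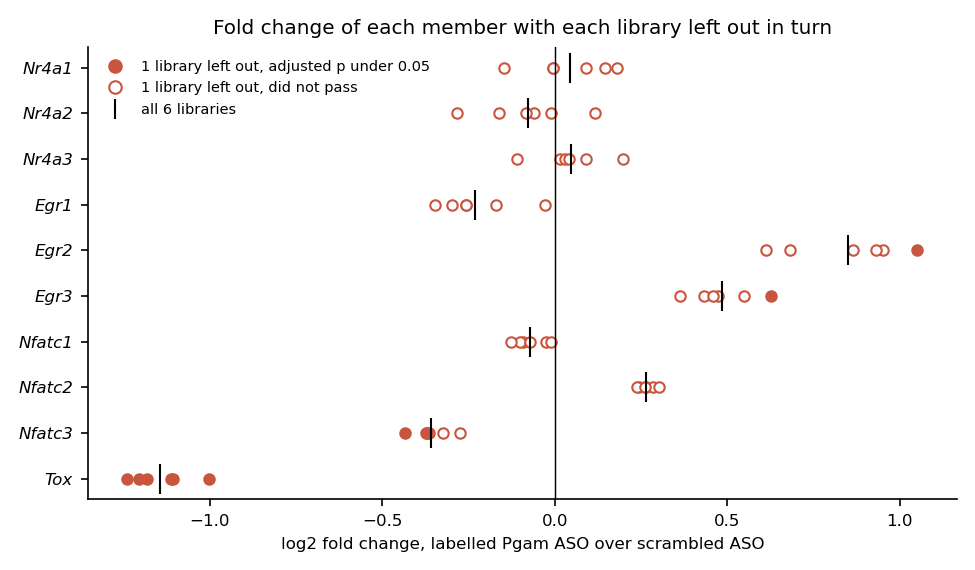
Log2 fold change of each member with each of the 6 libraries left out in turn, as filled circles where the edgeR adjusted p was under 0.05 and open circles elsewhere, with a black line for the fit to all libraries. All circles are filled for *Tox*, 2 for *Nfatc3*, 1 each for *Egr2* and *Egr3*, and none for *Nfatc2*.

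Members were ranked by level as CPM per kilobase of exon. In the libraries labelled scrambled ASO, *Nr4a1* was highest at 39.7 ± 4.89 (mean ± SD, n = 3), followed by *Nfatc1* at 27.7 ± 1.61, and neither overlapped with the next gene in order. *Egr3* (24.2 ± 2.02), *Nr4a3* (23.3 ± 1.39), *Egr1* (22.9 ± 5.32) and *Nfatc3* (20.2 ± 2.29) came next, and each of these 4 overlapped with the next among them. *Nfatc2* (16.7 ± 0.510), *Egr2* (9.96 ± 2.10), *Nr4a2* (5.81 ± 0.618) and *Tox* (3.97 ± 0.672) closed the order, each below the one before in every library. In the libraries labelled *Pgam* ASO, *Nr4a1* again led at 41.0 ± 9.34, but *Egr3* stood second at 33.9 ± 6.28, with overlap between them. *Nfatc1* (26.4 ± 2.10), *Nr4a3* (24.1 ± 5.05), *Nfatc2* (20.1 ± 0.937), *Egr1* (19.5 ± 1.41), *Egr2* (17.96 ± 5.35) and *Nfatc3* (15.8 ± 0.606) followed, each overlapping with its neighbour. *Nr4a2* (5.51 ± 1.51) and *Tox* (1.80 ± 0.140) remained the lowest, and both were apart from the gene above them.

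The genes whose profile over the 6 libraries was nearest to 1 member of each family, the one with the most counts, were found among 9124 tested genes with a mean of at least 10 CPM. The measure was the root mean square distance between centred log2 profiles. *Nr4a1* and *Nr4a3* had the same number of counts over the 6 libraries, and only *Nr4a1* was used. For *Nr4a1* the nearest were *Dnajc16* (0.0458), *Gm3608* (0.0540) and *Hectd2* (0.0607), beside a median distance of 0.255 to all compared genes. Other genes, mainly *Capza1*, hold 90.5% of the 31-base stretches of *Gm3608*, and 20.1% of those of *Hectd2* are shared, mainly with Hectd2os, so these profiles may not be their own. For *Egr3* the nearest were *Tsr1* (0.0476), *Atad3a* (0.0509) and *Dhx29* (0.0555), with a median of 0.292. Shared stretches made 33.2% of *Tsr1*, mainly with Srr on the opposite strand, and 14.9% of *Atad3a*. *Nfatc3* had the closest neighbours, *Pde8a* (0.0162), *BC005537* (0.0245) and *Mycbp2* (0.0246), with a median of 0.264. For *Tox* they were *Cux1* (0.0375), *Btg1* (0.0429) and *Cblb* (0.0792), with a median of 0.603.

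Relatives and cofactors of the members were examined as a list of 20 genes, of which 17 were tested. Among these, 2 rose and 3 fell (29.4% called, beside 17.2% of all tested genes), with a median log2 fold change of -0.0048. *Rxra*, whose product is a partner of NR4A1 and NR4A2, had 559, 548 and 487 counts in the libraries labelled scrambled ASO, against 1694, 1313 and 1021 under the *Pgam* ASO label. All libraries labelled *Pgam* ASO were far above the others, and *Rxra* rose by 1.45 log2 units (SE 0.175, adjusted p = 0.00173 by edgeR). *Nfat5*, the calcineurin-independent member of the NFAT family, had 658, 708 and 593 CPM against 405, 398 and 383. It fell by 0.72 log2 units (SE 0.0873, adjusted p = 0.00139), and both calls held in all 6 fits with a library left out. *Mef2d*, a calcium-responsive factor known to act upstream of *Nr4a1*, fell by 0.72 (adjusted p = 0.00801), and the call was lost without *Pgam* ASO replicate 2 (log2 fold change -0.68, adjusted p = 0.0632).

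Among serum response factor and its partners, which are known to act on EGR genes, *Srf* rose by 0.43 log2 units (SE 0.103, adjusted p = 0.0233 by edgeR). It did not pass without scrambled ASO replicates 1 and 2 (adjusted p = 0.0749 and 0.0523) or *Pgam* ASO replicates 1 and 2 (0.0733 and 0.0740). The ternary complex factor gene *Elk3* fell by 0.44 (adjusted p = 0.0107), and the call was lost without scrambled ASO replicate 1 (log2 fold change -0.43, adjusted p = 0.0569) and without *Pgam* ASO replicate 2 (-0.44, adjusted p = 0.0713). *Nab1* and *Nab2* encode corepressors of EGR proteins. Their log2 fold changes were -0.08 (adjusted p = 0.536) and 0.20 (adjusted p = 0.230), and 37.9% of the 31-base stretches of *Nab2* are shared with other genes. Over the whole list, 2 genes passed without *Pgam* ASO replicate 2 (11.8%, beside 2.51% of all genes), 3 without scrambled ASO replicate 1 (17.6%, beside 4.02%) and 7 without scrambled ASO replicate 3 (41.2%, beside 22.5%).

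NFAT proteins bind DNA together with AP-1, and BATF and IRF4 act on related composite elements. Of 14 tested genes of this list of 15, 4 rose and 2 fell (42.9% called, beside 17.2% of all tested genes), and the median log2 fold change was 0.32. *Batf3* stood at 11.7, 6.43 and 18.5 CPM in the libraries labelled scrambled ASO, against 72.8, 52.6 and 54.3 under the *Pgam* ASO label, and *Atf3* at 8.27, 5.13 and 11.7 against 54.3, 37.4 and 27.4. Neither gene overlapped between labels. *Batf3* rose by 2.30 log2 units (SE 0.353, adjusted p = 0.0109 by edgeR) and *Atf3* by 2.25 (SE 0.345, adjusted p = 0.00953), while without scrambled ASO replicate 1 the adjusted p was 0.0565 and 0.0509. *Batf* rose by 0.75 (adjusted p = 0.0108, or 0.0569 without *Pgam* ASO replicate 2).

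*Jun*, the core AP-1 subunit, moved the other way, at 66.0, 54.3 and 60.3 CPM in the libraries labelled scrambled ASO against 29.3, 34.0 and 30.1 in those labelled *Pgam* ASO. *Bach2*, a repressor that competes at AP-1 sites, had 185, 216 and 147 CPM against 91.1, 86.6 and 95.2. Both were lower in every library labelled *Pgam* ASO, and both calls held in all 6 fits with a library left out. The log2 fold change was -0.95 for *Jun* (SE 0.107, adjusted p = 0.00101 by edgeR) and -1.01 for *Bach2* (SE 0.128, adjusted p = 0.00173). *Junb*, with 668.7, 589.7 and 776 CPM against 755, 680.2 and 674, overlapped (log2 fold change 0.05, adjusted p = 0.762).

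*Fos* was low, at 6.30, 3.51 and 3.90 CPM in the libraries labelled scrambled ASO, against 5.65, 11.8 and 12.6 under the *Pgam* ASO label, and the groups overlapped through *Pgam* ASO replicate 1. It passed with all 6 libraries (log2 fold change 1.13, adjusted p = 0.0428 by edgeR) and, with a library left out, only without *Pgam* ASO replicate 1 (log2 fold change 1.42, adjusted p = 0.0147). The adjusted p was 0.0552, 0.138 and 0.0884 without scrambled ASO replicates 1, 2 and 3, and 0.156 and 0.0831 without *Pgam* ASO replicates 2 and 3. It was also lost when libraries were scaled by their totals alone (0.0527) and with a replicate block (0.105). *Irf4*, which is induced in step with receptor signal strength, had 559, 388 and 613 CPM against 970.1, 834 and 654. The labels did not overlap, and the log2 fold change was 0.66 (adjusted p = 0.0507), just outside the threshold. It passed without scrambled ASO replicate 3 (0.79, adjusted p = 0.0367) and without *Pgam* ASO replicate 3 (0.80, adjusted p = 0.0182). It also passed in 5 of 6 fits to all libraries with another test, scaling, filter or block, whose adjusted p ran from 5.92e-07 to 0.0618. Over the list, 3 genes passed without scrambled ASO replicate 1 (21.4%, beside 4.02% of all genes).

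The calcium and calcineurin list holds the channels, sensors and phosphatase subunits upstream of NFAT, and 29 of its 31 genes were tested. Of these, 2 rose and 6 fell (27.6% called, beside 17.2% of all tested genes), with a median log2 fold change of 0.02. Among the receptors that release calcium from the endoplasmic reticulum, *Itpr1* rose by 0.52 log2 units (adjusted p = 0.0237 by edgeR), and *Itpr2* and *Itpr3* had log2 fold changes of -0.55 each (adjusted p = 0.0138 and 0.0310). *Dyrk2*, a kinase that phosphorylates NFAT towards export, had the largest fall of the list, at 47.1, 59.1 and 38.6 CPM in the libraries labelled scrambled ASO, against 26.8, 26.1 and 32.7 under the *Pgam* ASO label (log2 fold change -0.76, adjusted p = 0.0141). *Kcnn4*, *Orai3* and *Stim2* were the other genes that fell. With a library left out, *Orai3* was called in 2 of 6 fits, those without replicate 3 of either label, and *Kcnn4* and *Stim2* in 4 of 6. The adjusted p without scrambled ASO replicate 1, *Pgam* ASO replicate 1 and *Pgam* ASO replicate 2 was 0.0512, 0.0503 and 0.0873 for *Dyrk2*. In the same order it was 0.0876, 0.0648 and 0.0870 for *Itpr1*, 0.0525, 0.0501 and 0.0805 for *Itpr2*, and 0.0876, 0.0969 and 0.134 for *Itpr3*, which was also lost without scrambled ASO replicate 2 (0.0995). By edgeR, 0 genes of the list passed without scrambled ASO replicate 1 (10 at an unadjusted p under 0.05) or without *Pgam* ASO replicate 2 (12 at an unadjusted p under 0.05), 2 passed without *Pgam* ASO replicate 1, and 14 passed without scrambled ASO replicate 3. The background in these 4 fits was 4.02%, 2.51%, 5.60% and 22.5% of all genes.

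The calcineurin subunits themselves did not pass. *Ppp3ca*, which encodes a catalytic subunit, had 27.9, 32.6 and 22.6 CPM in the libraries labelled scrambled ASO, against 14.5, 18.9 and 23.8 under the *Pgam* ASO label, with overlap through *Pgam* ASO replicate 3. Its log2 fold change was -0.54 (adjusted p = 0.0716 by edgeR), and it passed without scrambled ASO replicate 3 (-0.67, adjusted p = 0.0329) and without *Pgam* ASO replicate 3 (-0.73, adjusted p = 0.0212). It also passed in 2 of 6 other fits to all libraries (adjusted p from 0.0021 to 0.110). The other catalytic subunit genes, *Ppp3cb* and *Ppp3cc*, had log2 fold changes of 0.18 and 0.17 (adjusted p = 0.197 and 0.279). The regulatory subunit gene *Ppp3r1* had 0.24 (adjusted p = 0.124, or 0.0423 without *Pgam* ASO replicate 3). *Rcan1*, a calcineurin inhibitor that NFAT is known to induce, had 16.3, 14.6 and 14.4 CPM against 11.2, 12.5 and 10.2. Its libraries did not overlap between labels, but the log2 fold change of -0.42 did not pass (adjusted p = 0.0593), and over 6 other fits to all libraries the adjusted p ran from 0.0475 to 0.114.

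All 33 genes of the list of proximal T cell receptor signaling were tested, and 1 rose and 5 fell (18.2% called, close to the background of 17.2%), with a median log2 fold change of -0.19. *Cd28*, the costimulatory receptor, fell by 0.66 log2 units (SE 0.0856, adjusted p = 0.00183 by edgeR) and kept its call in all 6 fits with a library left out. *Cd5*, a negative regulator of receptor signaling, had 435, 504 and 392 CPM in the libraries labelled scrambled ASO, against 351, 306 and 294 under the *Pgam* ASO label (log2 fold change -0.49, adjusted p = 0.0194). The phosphatase gene *Ubash3b* was at -0.47 (adjusted p = 0.0126), and *Ptpn22* and *Sla*, both negative regulators, also fell but were called in 2 and 1 of the 6 fits with a library left out, neither without scrambled ASO replicates 1 and 2 or *Pgam* ASO replicates 1 and 2. The kinase gene *Tec* rose by 0.66 (adjusted p = 0.02003). Without scrambled ASO replicate 1, the adjusted p was 0.0817 for *Tec*, 0.0678 for *Cd5* and 0.0637 for *Ubash3b*. Without *Pgam* ASO replicate 2, it was 0.0967, 0.106 and 0.0823, and in each of these fits 1 gene of the list passed (3.03%, beside 4.02% and 2.51% of all genes). Without scrambled ASO replicate 3, 14 passed (42.4%, beside 22.5% of all genes), and without *Pgam* ASO replicate 3, 10 did (30.3%, beside 21.5%).

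Genes induced by the receptor or acting in its feedback, many of them described as targets of NFAT, EGR or NR4A factors, formed a list of 40, all tested. Among them 5 rose and 8 fell (32.5% called, beside 17.2% of all tested genes), with a median log2 fold change of -0.27. *Cblb* and *Dgka*, which encode a ubiquitin ligase and a diacylglycerol kinase and are known as EGR2 and EGR3 targets in anergy, were lower in every library labelled *Pgam* ASO. *Cblb* had 176, 210 and 142 CPM in the libraries labelled scrambled ASO against 84.7, 73.1 and 91.3, a log2 fold change of -1.08 (SE 0.140, adjusted p = 0.00188 by edgeR). *Dgka* had a log2 fold change of -1.31 (SE 0.205, adjusted p = 0.00835).

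*Nrn1*, which encodes the surface protein neuritin known from anergic cells and Tregs, had 257, 241 and 247 CPM in the libraries labelled scrambled ASO, against 66.9, 79.7 and 104 under the *Pgam* ASO label. Its log2 fold change of -1.57 (SE 0.141, adjusted p = 0.000401 by edgeR) was the largest fall of the list, with 21.1% of its 31-base stretches shared with *Fars2* on the opposite strand. The calls of *Nrn1*, *Dgka* and *Cblb* held in all 6 fits with a library left out. *Pou2f2*, *Cd69*, *Tnfaip3*, *Dusp1* and *Ier2* were the other genes that fell, and *Cd40lg* and *Dusp6* rose along with *Phlda1*, *Fasl* and *Dusp5*. *Phlda1* rose by 0.81 log2 units (adjusted p = 0.0178), *Fasl* by 0.68 (adjusted p = 0.0257) and *Dusp5* by 0.56 (adjusted p = 0.0243). Shared stretches made 30.8% of *Phlda1* and 21.2% of *Dusp5*. The sharing transcripts on the opposite strand were assigned 0 counts in every library for *Phlda1* and 11 to 17 per library for *Dusp5*. The list had 6 calls without scrambled ASO replicate 1, all of them falls, 8 without *Pgam* ASO replicate 1 and 5 without *Pgam* ASO replicate 2, in fits that called 4.02%, 5.60% and 2.51% of all genes. *Phlda1* was not called in any of these 3 fits (adjusted p = 0.0658, 0.0569 and 0.0610, in that order), nor was *Fasl* (0.0977, 0.0907 and 0.108) or *Dusp5* (0.0742, 0.0802 and 0.0967). Without scrambled ASO replicate 2, *Fasl* and *Dusp5* were at 0.0633 and 0.0528. Of the others, *Pou2f2* and *Cd69* kept their calls in all 6 fits, and *Dusp6* was called in 2 of them, those without replicate 3 of either label. *Dusp1* was lost without scrambled ASO replicate 1 and *Pgam* ASO replicates 1 and 2, *Ier2* and *Cd40lg* without scrambled ASO replicate 1 and *Pgam* ASO replicate 2, and *Tnfaip3* without *Pgam* ASO replicate 2.

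**Figure D5:**
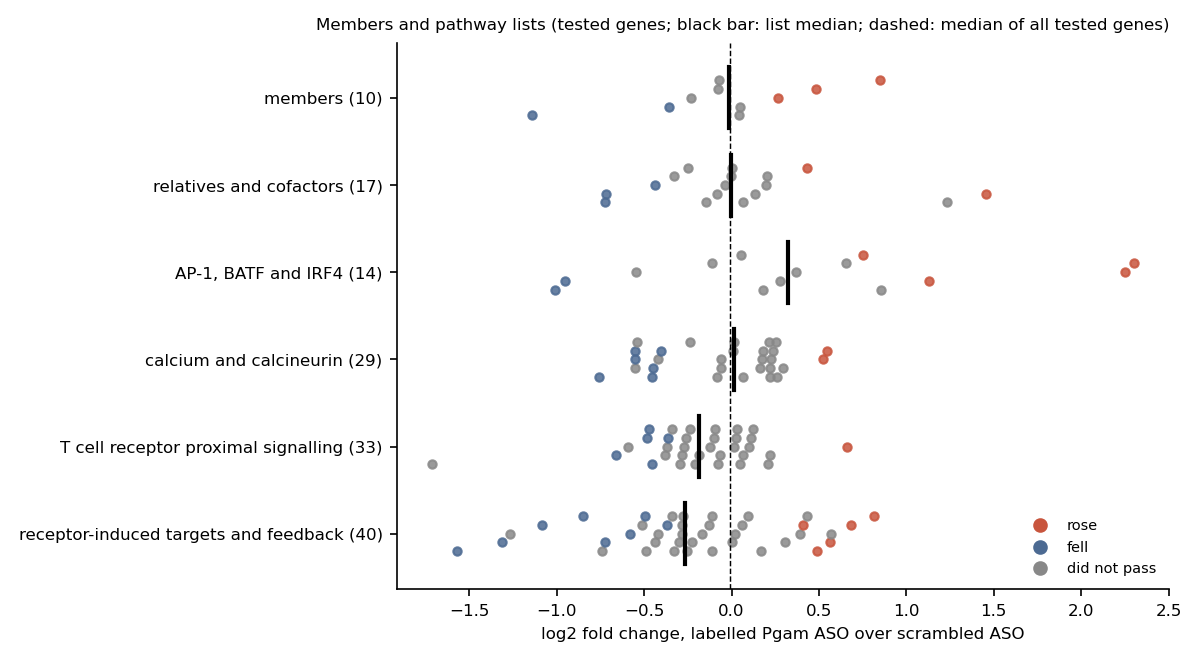
Log2 fold change of every tested gene of the members and of the 5 pathway lists, labelled *Pgam* ASO over labelled scrambled ASO, with red for genes that rose, blue for genes that fell and gray for genes that did not pass. A black bar marks each list's median, which is highest for AP-1, BATF and IRF4 (0.32) and lowest for the targets and feedback list (-0.27), and a dashed line marks the median of all tested genes.

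Markers of cell types were measured beside these genes, and their part in the results was not tested. Their calls come from the edgeR fit to all 6 libraries. The 9 CD4 T cell markers were all tested, and their sums were 2819, 3118 and 2619 CPM in the libraries labelled scrambled ASO, against 2240, 2423 and 2528 under the *Pgam* ASO label, with *Cd4* as the most abundant (27.4% of the sum) and 1 called gene, *Trac*, that fell. Of the 9, 8 were lower in every library labelled *Pgam* ASO, while *Cd247* overlapped. Over all tested genes, 39.5% had no overlap between labels in either direction. The list's median log2 fold change was -0.27. Of 8 Treg markers, *Il2ra* rose and 3 fell, namely *Foxp3*, *Ikzf2* and *Nt5e*. Their sums of 3289, 3158 and 3559 CPM against 3847, 3892 and 3538 were dominated by *Il2ra* (66.2%). Of 7 B cell markers, *Ighm* and *Ighd* fell, and the sums were 338, 472 and 228 CPM against 87.3, 122 and 153. *Ighm* made 93.7% of these sums, while the B cell genes *Ms4a1* and *Pax5* were each at or under 2.55 CPM in every library.

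The remaining marker lists were small or low. The 3 CD8 T cell markers summed to 87.0, 86.3 and 102 CPM against 96.0, 89.7 and 112, with *Runx3* at 86.6% of the sum and a rise of *Cd8a*, which was at or under 7.02 CPM. *Cd8b1*, above *Cd8a* in every library, had 8.78, 10.4 and 8.61 CPM against 7.58, 7.25 and 9.41, with overlap. By edgeR it did not pass (log2 fold change -0.20, adjusted p = 0.454), nor did *Runx3* (0.10, adjusted p = 0.561). Of 9 myeloid markers 5 were tested and *Cd74* fell, with sums of 239.9, 198 and 265 CPM against 214, 184 and 198 and *Cd74* at 57.6%. Of 4 natural killer cell markers, *Klrb1c* and *Klra8* had 0 counts in all libraries and only *Eomes* was tested. *Eomes* fell and made 99.9% of sums of 52.6, 32.2 and 55.0 CPM against 28.3, 26.9 and 24.1. Of 6 mast cell and basophil markers, *Gata2* rose and *Kit* fell among 3 tested, with sums from 6.54 to 7.93 CPM. *Kit* made 50.3% of the sums over all libraries, at 5.29, 5.40 and 6.01 CPM against 0.932, 1.48 and 2.78. *Cpa3* had 0.957, 1.51 and 0.74 CPM against 2.55, 2.25 and 2.13, but did not pass (adjusted p = 0.0526 by edgeR). Among the untested genes, *Mcpt8* had 0, 2 and 3 counts against 16, 11 and 5. *Fcer1a* had 0, 2 and 0 against 4, 8 and 6, and *Ms4a2* overlapped between labels. Of 6 erythroid markers 2 were tested and neither passed. *Hba-a2* had 0 counts, and the sums ran from 0.994 to 2.65 CPM. *Hba-a1* made 33.4% of the sums over all libraries, but the order differed between libraries. *Klf1* was above it in every library labelled scrambled ASO, and *Hbb-bt* was above it in *Pgam* ASO replicate 3. *Klf1* stood at 1.29, 0.594 and 0.74 CPM against 0.0621, 0.321 and 0.414 (log2 fold change -1.69, adjusted p = 0.0801 by edgeR).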

How the data were processed

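RNA was measured in 6 libraries, grouped by their labels. The authors deposited estimated counts per gene made with kallisto (version not given in the sources used here). The submitters' processing notes name GRCm38. The values were whole numbers as deposited, so rounding changed none. Symbols were found for 52073 of 56748 genes and coordinates in GENCODE M21 for 52125, and 28236 genes had 0 counts throughout.

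The groups were compared in R 4.3.3 with edgeR 4.0.16: filterByExpr defaults (14936 genes kept), TMM factors (0.972 to 1.03), a two-sided robust quasi-likelihood test with p-values adjusted by Benjamini-Hochberg across the tested genes and a threshold of 0.05. The procedure was tested on simulated data. Alternatives were the DESeq2 1.42.0 Wald test, RLE size factors, library size alone, 2 other filters on low counts, a replicate block and each library left out in turn. CPM used TMM-scaled totals, and profiles used log2 CPM with a pseudocount of 0.5. Total counts of 15860476 to 18032805 make 3 counts about 0.162 to 0.193 CPM. Pairs of libraries differed beyond sampling noise, with a chi-square per degree of freedom of at least 6.75, so none was counted as a duplicate.

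The members and lists were chosen with earlier results of these data known. Named genes are the members, *Pgam1*, *Pgam2*, *Foxp3*, the 3 genes of each list with the largest called rise and fall, genes with a stated role, and nearest profiles, and not all of them are reported here. Other called genes, ratios and the alternatives run on ratios and on named genes outside the members were added after the data had been seen. Promoter windows came from RefSeq and shared 31-base stretches from GENCODE M21 transcripts, with Python 3.11.15, pandas 2.3.3 and matplotlib 3.10.9. No protein sequence was used here.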

Additional observations from a re-analysis of the deposited data

How the results depend on the processing

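Under the DESeq2 Wald test, RLE size factors and both other filters on low counts, the same 5 members were called in the same directions. With library size alone 4 were called, as *Nfatc2* did not pass. With a replicate block, 3 members (*Egr2*, *Egr3* and *Tox*) and 1235 of all genes were called, of which 1221 were shared with the unblocked fit in the same direction. Under the block the adjusted p was 0.120 for *Nfatc2*, 0.0765 for *Nfatc3*, 0.105 for *Fos*, 0.0592 for *Itpr3* and 0.0637 for *Fasl*, and the calls of *Orai3*, *Ptpn22*, *Sla*, *Dusp6* and *Ier2* were lost as well. Libraries with the same number did not deviate together: their correlations over genes were 0.05, -0.03 and -0.24, and other pairs ran from -0.25 to 0.28, so the numbers were not taken as pairs. Only scrambled ASO replicate 1 correlated best with the library of its own number, among those of the other label. Counting every gene with at least 1 count, 11 proximal signaling genes (33.3%) and 21 target and feedback genes (52.5%) passed, beside 13.1% of all genes, and *Batf3* did not (adjusted p = 0.0518). The cause of these shifts was not tested.

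With a library left out, all genes called ran from 391 (without *Pgam* ASO replicate 2) to 3484 (without scrambled ASO replicate 3), and members called from 1 to 4. In the lists they ran from 2 to 7 for relatives and cofactors, 3 to 6 for AP-1, BATF and IRF4, 0 to 14 for calcium and calcineurin, 1 to 14 for proximal signaling and 5 to 19 for targets and feedback. Each such fit has 5 libraries. The members' median log2 fold change ran from -0.14 to 0.15 in these fits. Of the members and other genes refitted one by one, none called with all 6 libraries reversed its direction under an alternative, while the sign changed for *Nr4a1*, *Nr4a2*, *Nr4a3*, *Junb*, *Dnajc16*, *Gm3608* and *Hectd2*, none of them called. The median over all genes moved by less than 0.1 log2 units between scalings.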
